A study of Mus musculus with 4 samples.

Results

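The transfer of fatty acids from capillary blood to muscle fibres was described here through 10 genes: Lpl, Gpihbp1, Cd36, Fabp4, Fabp5, Fabp3, Slc27a1, Slc27a4, Meox2 and Tcf15. They were taken by gene symbol from a list of the capillary lipase anchor, the fatty acid carriers and their regulators. All 10 were found among the 55401 genes of the count files, and all 10 were among the 13533 genes with enough counts to be tested. The counts came from 4 poly(A) RNA-seq libraries of semimembranosus, a hamstring muscle of the thigh, from C57BL/6 mice aged 8 weeks. In both groups the left external iliac vein had been tied over a 30-gauge needle to give iliac vein stenosis (IVS). The IVS_diosmin group (2 libraries) was given by gavage the citrus-type flavonoid diosmin, a drug given for venous disease, at 40 mg per kg per day. The IVS group (2 libraries) was given saline by the same route. No unoperated or sham muscle was analysed here, so the comparison is diosmin against saline within stenosis. The labels do not state the length of treatment or whether the 2 libraries of a group came from separate animals, so p-values measure the spread between these libraries, which may be technical.

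Fatty acids reach a muscle fibre along a chain of proteins in and around the capillary wall. Lipoprotein lipase (Lpl), made largely by muscle fibres and fat cells, is carried to the lumen by GPIHBP1 of capillary endothelial cells and there releases fatty acids from triglyceride-rich lipoproteins. CD36 takes up fatty acids at the endothelial surface and again at the fibre surface. Inside cells FABP4 and FABP5 bind fatty acids in endothelium, and FABP3, the heart-type form, binds them in oxidative muscle fibres. SLC27A1 and SLC27A4 (fatty acid transport proteins 1 and 4) couple uptake to acyl-CoA formation. MEOX2 and TCF15 are transcription factors that pair in the capillary endothelium of the mouse heart and have been reported to drive Cd36 and Lpl transcription there.

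With diosmin, 5 genes of this chain that endothelium makes fell, of which Cd36 and Fabp4 are also made by other cells. Fabp3 and Slc27a1, which fibres make, had higher values. By edgeR's quasi-likelihood test at an adjusted p under 0.05, 5 of the 10 genes fell by 2.17-fold to 2.70-fold (Cd36, Fabp4, Gpihbp1, Meox2 and Tcf15). None of the 10 rose in edgeR, while 2 had higher values at an unadjusted p under 0.05, the 2 that DESeq2 called higher. Among all tested genes 1.78% fell and 1.17% rose by the same rule. In either direction, 2276 of the 13533 tested genes had an unadjusted p under 0.05 in edgeR, against 8 of the 10. Counts at an unadjusted p in the gene lists below are to be read beside that background. Another 3 genes (Fabp5, Fabp3 and Slc27a1) had values that did not overlap between the groups but missed the threshold, with Fabp5 below and Fabp3 and Slc27a1 above the saline libraries. Counting by overlap alone, 6 of the 10 genes had both diosmin libraries below both IVS libraries, against 24.1% of all tested genes, and 2 had both above, against 23.4%. The log2 fold changes had a median of -1.07 over the 10 genes and of 0.01 over all tested genes. Of the 5 calls, Cd36 was the one that passed in most fits without 1 library, in 3 of 4, and without IVS_diosmin replicate 1 the count of calls among the 10 genes was 0. In bulk muscle, fewer cells of a type and less RNA per cell cannot be told apart.

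**Figure D1:**
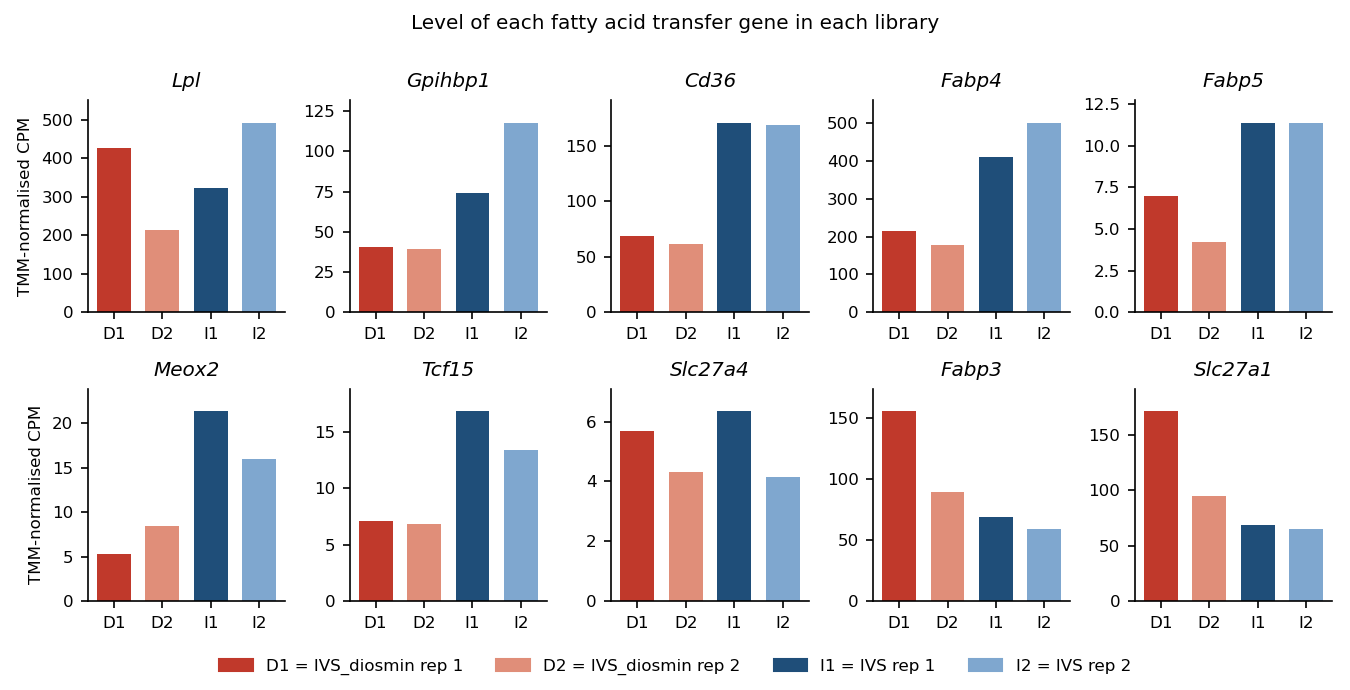
TMM-normalised counts per 1000000 gene reads (CPM, y axes starting at 0, a scale for each gene) in each of the 4 libraries, with 1 bar per library and the diosmin libraries (D1, D2) left of the IVS libraries (I1, I2). Both diosmin bars are below both IVS bars for Gpihbp1, Cd36, Fabp4, Fabp5, Meox2 and Tcf15, above them for Fabp3 and Slc27a1, and mixed with them for Lpl and Slc27a4.

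Gene counts summed to between 13056650 and 15324354 per library. Fast fibre genes, which mark this muscle, summed over 10 markers to 90340 and 90656 CPM in the diosmin libraries and to 100990 and 108445 CPM in the IVS libraries, so muscle RNA was abundant in all 4. The share of gene counts on an annotated rRNA gene (CT010467.1), a sign of how well poly(A) selection worked, was 1.16% and 0.936% in the diosmin libraries and 4.14% and 3.80% in the IVS libraries. Rn7sk, a small nuclear RNA that carries no poly(A) tail, was at 11.9 and 5.96 CPM with diosmin and at 34.5 and 33.4 CPM in IVS. Of 4 tested genes fixed as signs of RNA quality, Rn7sk and Lars2, whose annotated exons hold rRNA-like sequence, fell and 0 rose. Lars2 was at 584 and 521 CPM with diosmin and at 2003 and 1863 CPM in IVS. These signs moved with the groups, so they move with every group difference below, and their part in the results was not tested.

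The bases before the transcription start are shown for Cd36 and Meox2, which fell, and for Slc27a1, which had higher values. They come from RefSeq (GRCm38.p6, the same assembly as mm10), where 5 of the 10 genes had an entry. Fabp4, Fabp5, Gpihbp1, Lpl and Tcf15 had none. Each stretch is the 250 bases before a start, read 5′ to 3′ on the strand of the gene. Cd36 has several annotated starts, and the stretch belongs to the RefSeq one (minus strand, chr5:17835897-17836146). That of Meox2 is chr12:37108290-37108539 and that of Slc27a1 is chr8:71568621-71568870, both on the plus strand. The Slc27a1 stretch is the first of 3 that RefSeq gives for that gene. Capitals mark 3 short motifs searched on both strands, none of which overlap here: the E-box CANNTG read by basic helix-loop-helix factors such as TCF15, the homeobox core TAAT, and the nuclear receptor half-site AGGTCA.
Cd36: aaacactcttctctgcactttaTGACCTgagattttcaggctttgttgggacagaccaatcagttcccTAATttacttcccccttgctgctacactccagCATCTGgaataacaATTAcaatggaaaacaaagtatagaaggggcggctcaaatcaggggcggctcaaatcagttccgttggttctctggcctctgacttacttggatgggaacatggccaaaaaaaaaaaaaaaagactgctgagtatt
Meox2: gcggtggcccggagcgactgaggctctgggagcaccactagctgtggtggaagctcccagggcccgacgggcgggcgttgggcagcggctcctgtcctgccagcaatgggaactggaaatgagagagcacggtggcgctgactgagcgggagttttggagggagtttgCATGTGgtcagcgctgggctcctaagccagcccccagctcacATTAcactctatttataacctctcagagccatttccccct
Slc27a1: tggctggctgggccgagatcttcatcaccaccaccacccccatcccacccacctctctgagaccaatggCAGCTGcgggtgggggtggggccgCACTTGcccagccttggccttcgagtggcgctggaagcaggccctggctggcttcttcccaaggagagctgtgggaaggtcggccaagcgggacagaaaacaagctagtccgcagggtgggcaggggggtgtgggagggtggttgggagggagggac
The Cd36 stretch held 1 E-box, 2 homeobox cores and 1 half-site, that of Meox2 held 1 E-box and 1 homeobox core, and that of Slc27a1 held 2 E-boxes. Such matches are common: of 32851 windows of this length, 66.2% held an E-box, 54.9% a homeobox core and 14% a half-site. A match is a match of letters and not a measured site, and no binding was measured in these samples.

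Gpihbp1 is the protein that anchors lipoprotein lipase on the luminal face of capillaries (ENSMUSG00000022579.10, mm10 chromosome 15, 75596628 to 75599481). Its level was 40.3 and 39.3 CPM in IVS_diosmin replicates 1 and 2, against 74.2 and 118 CPM in IVS replicates 1 and 2. The diosmin libraries were almost equal and both lay below the IVS libraries, which differed from each other. The fold change was -1.27 ± 0.24 on the log2 scale (SE, edgeR adjusted p = 0.0166). The edgeR adjusted p was 0.186 without IVS_diosmin replicate 1, 0.0687 without its replicate 2 and 0.175 without IVS replicate 2. The log2 fold changes of these fits were -1.29, -1.26 and -0.90. Without IVS replicate 1 it passed (log2 -1.57, edgeR adjusted p = 0.00435).

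Lpl, the lipase itself (ENSMUSG00000015568.16, chromosome 8, 68880491 to 68907448), was not called. It was at 427 and 213 CPM with diosmin and at 323 and 493 CPM in IVS. The groups overlapped, since diosmin replicate 1 lay between the IVS libraries and diosmin replicate 2 below both. The log2 fold change was -0.35 ± 0.34 (SE, edgeR adjusted p = 0.681), and it was 0.05 without IVS_diosmin replicate 2. Within a library, where scaling between libraries plays no part, Lpl had 10.6 and 5.42 reads per read of Gpihbp1 with diosmin, against 4.36 and 4.18 in IVS. This ratio was higher in both diosmin libraries, by 0.83 on the log2 scale.

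Cd36 (ENSMUSG00000002944.15, chromosome 5, 17781690 to 17888801) had the smallest p of the 10 genes. It was at 68.7 and 61.4 CPM with diosmin, against 171 and 169 CPM in IVS, or 65.1 ± 5.13 against 170 ± 0.986 CPM (SD, n = 2 each). Each pair of libraries was close together and the groups lay far apart. The log2 fold change was -1.39 ± 0.20 (SE, edgeR adjusted p = 0.00443), a 2.62-fold lower level. The call was lost without IVS_diosmin replicate 1 (log2 -1.47, edgeR adjusted p = 0.0815) and passed without each of the other libraries.

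Fabp4, a fatty acid binding protein of endothelium and fat cells (ENSMUSG00000062515.3, chromosome 3, 10204088 to 10208576), was at 215 and 178 CPM with diosmin and at 411 and 502 CPM in IVS. Both diosmin libraries were below both IVS libraries. Its log2 fold change was -1.22 ± 0.22 (SE, edgeR adjusted p = 0.0122). The edgeR adjusted p was 0.124 without IVS_diosmin replicate 1, 0.0687 without its replicate 2 and 0.116 without IVS replicate 2.

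Fabp5, the epidermal-type form that endothelium also makes, lies 187 kb from Fabp4 on chromosome 3 (ENSMUSG00000027533.10, 10012548 to 10016607). It was at 7.01 and 4.23 CPM with diosmin and at 11.4 CPM in each IVS library, from 91, 61, 200 and 141 reads in that order. The groups did not overlap, but the log2 fold change of -1.03 ± 0.32 (SE) did not pass (edgeR adjusted p = 0.116). It passed with no low count filter (edgeR adjusted p = 0.0402). The number of Fabp4 reads per Fabp5 read was 30.7 and 42.0 with diosmin and 36.0 and 43.9 in IVS, overlapping values around a log2 difference of -0.15. The aligned part of the 2 mRNAs is 63.1% identical over 347 bases. For Fabp5, 2 other annotated genes match its mRNA at 97% identity or more over at least 150 bases, and reads that fit several of these places were not counted, so its level may be understated.

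Meox2, a homeobox factor of endothelium and of developing muscle (ENSMUSG00000036144.6, chromosome 12, 37108540 to 37179534), had the largest fall of the 10 genes. It was at 5.31 and 8.46 CPM with diosmin and at 21.3 and 16.0 CPM in IVS, from 69, 122, 373 and 197 reads. Both diosmin libraries lay below both IVS libraries, and the log2 fold change was -1.44 ± 0.29 (SE, edgeR adjusted p = 0.0245). It missed the threshold without IVS_diosmin replicate 1 (edgeR adjusted p = 0.223), without IVS replicate 1 (0.104) and without IVS replicate 2 (0.0616).

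Tcf15, its basic helix-loop-helix partner (ENSMUSG00000068079.5, chromosome 2, 152143561 to 152149097), was at 7.08 and 6.86 CPM with diosmin and at 16.8 and 13.4 CPM in IVS. The groups were apart and the diosmin libraries nearly equal, with 92 and 99 reads against 294 and 165 in IVS. The log2 fold change was -1.12 ± 0.27 (SE, edgeR adjusted p = 0.0459), close to the threshold, and no fit without 1 library passed (edgeR adjusted p from 0.133 to 0.237). The reads of Meox2 per read of Tcf15 were 0.750 and 1.23 with diosmin and 1.27 and 1.19 in IVS, so diosmin replicate 1 alone stood below the others.

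Fabp3 (ENSMUSG00000028773.8, chromosome 4, 130308595 to 130315463), the carrier of the fibre's cytoplasm, was at 155 and 89.3 CPM with diosmin and at 68.3 and 58.6 CPM in IVS. Both diosmin libraries were above both IVS libraries, with replicate 1 the highest. The log2 fold change was 0.94 ± 0.26 (SE) and missed the threshold (edgeR adjusted p = 0.0762). It passed in DESeq2 (adjusted p = 0.0166). In edgeR the log2 fold change was 1.27 without IVS_diosmin replicate 2 and 0.49 without IVS_diosmin replicate 1, so its size leaned on that library. Over 161 of its 823 exon bases Fabp3 lies opposite exons of other genes, 80 bases opposite Gm10570 and 81 opposite Zcchc17, so reads there cannot be placed without strand. Gm10570 had 34 and 30 reads with diosmin and 13 and 19 in IVS. Zcchc17 had 433 and 439 reads with diosmin and 352 and 259 in IVS, against 2012, 1288, 1197 and 722 for Fabp3.

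Slc27a1, the main fatty acid transport protein of muscle (ENSMUSG00000031808.7, chromosome 8, 71568882 to 71587302), was at 171 and 95.1 CPM with diosmin and at 68.7 and 64.9 CPM in IVS. As for Fabp3, both diosmin libraries were above the IVS libraries and replicate 1 was the highest. The log2 fold change was 1.00 ± 0.26 (SE, edgeR adjusted p = 0.0685). It passed in DESeq2 (adjusted p = 0.0107) and in edgeR without IVS_diosmin replicate 2 (1.34, adjusted p = 0.0102), and without IVS_diosmin replicate 1 it was 0.51.

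Slc27a4, the other transport protein (ENSMUSG00000059316.2, chromosome 2, 29802634 to 29817522), was the lowest of the 10 genes per length. It was at 5.70 and 4.30 CPM with diosmin and at 6.34 and 4.14 CPM in IVS, from 51 to 111 reads per library. The groups overlapped fully (log2 -0.08 ± 0.37, SE, edgeR adjusted p = 0.952), and the sign turned without IVS_diosmin replicate 2 (0.09) and without IVS replicate 1 (0.27).

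**Figure D2:**
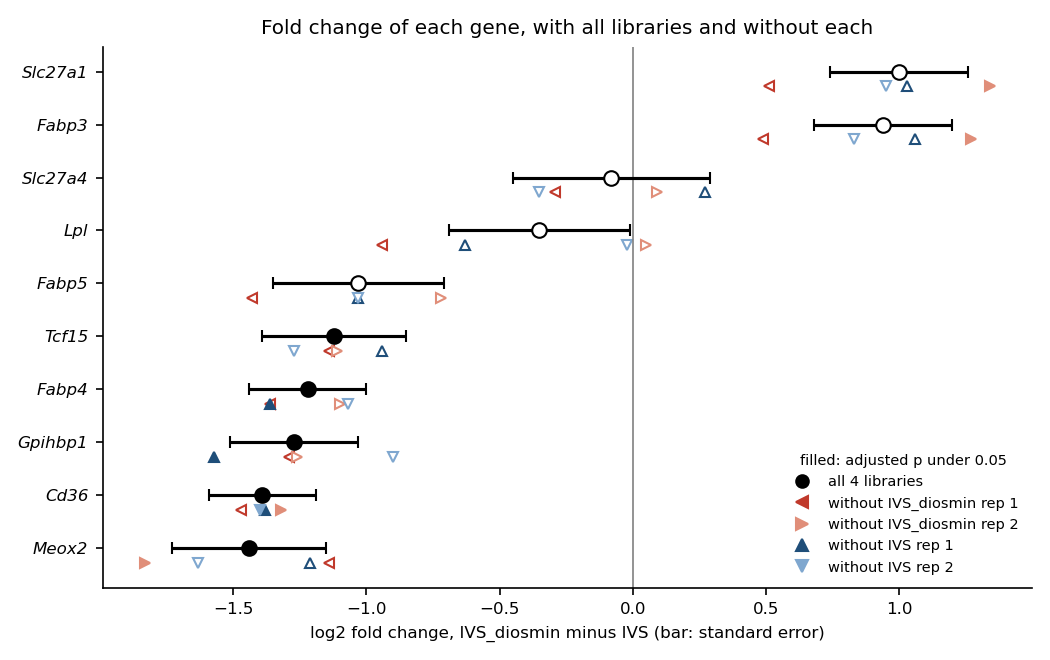
Log2 fold change of each gene, IVS_diosmin minus IVS (x axis), with all 4 libraries (circles, bars are standard errors) and, just under each circle, without each library in turn (triangles). Filled symbols have an edgeR adjusted p under 0.05; Cd36 stays between -1.47 and -1.32 in the fits without 1 library, while Lpl spans -0.94 to 0.05 and Slc27a4 -0.35 to 0.27.

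Reads of Fabp3 and Slc27a1 were also set against those of Fabp4 and Cd36 within each library. Fabp4 and Cd36 are made outside the capillary wall too, so these ratios do not show which cells the reads came from. Reads of Fabp3 per read of Fabp4 were 0.721 and 0.503 with diosmin and 0.166 and 0.117 in IVS, a log2 difference of 2.11. Reads of Slc27a1 per read of Cd36 were 2.50 and 1.55 with diosmin and 0.402 and 0.383 in IVS, a log2 difference of 2.32. In both ratios the 2 diosmin libraries were above the 2 IVS libraries, and neither ratio depends on how libraries were scaled. These pairs were chosen after the values were seen and are given with no test.

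Levels of different genes were compared per length, as transcripts per 1000000 transcripts (TPM). With the length of the longest coding transcript, a length chosen after the data were seen, Fabp4 was the highest of the 10 genes in both groups, at 314 and 282 TPM with diosmin and 709 and 693 TPM in IVS. Fabp3 came next with diosmin (247 and 154 TPM), ahead of Lpl (136 and 73.7 TPM). In IVS Fabp3 (128 and 88.1 TPM) and Lpl (122 and 148 TPM) overlapped. Gpihbp1 and Cd36 were neighbours at about the same level in each group, at 32.0 and 33.8 TPM for Gpihbp1 and 26.5 and 25.7 TPM for Cd36 with diosmin, and at 69.4 and 88.3 TPM and 77.7 and 61.7 TPM in IVS. Their values overlapped in IVS and not with diosmin. Slc27a1 stood above both with diosmin (80.3 and 48.4 TPM) and below both in IVS (38.0 and 28.7 TPM). Fabp5, Tcf15 and Meox2 came next, from 2.95 TPM for Meox2 in diosmin replicate 1 to 26.5 TPM for Tcf15 in IVS replicate 1, and Slc27a4 was last at 1.26 to 2.42 TPM over the 4 libraries.

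The order of the top genes depends on the length used. The union of all annotated exons counts a Fabp4 transcript that keeps its introns, which makes Fabp4 4489 bases long in place of 896 and Lpl 10478 in place of 4115. On that length Fabp3 was the highest with diosmin (275 and 174 TPM), ahead of Fabp4 (69.9 and 63.4 TPM), and in IVS Fabp4 (162 and 155 TPM) was ahead of Fabp3 (147 and 98.9 TPM). TPM here is not TMM-scaled, so these levels order genes and are not used to compare groups.

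**Figure D3:**
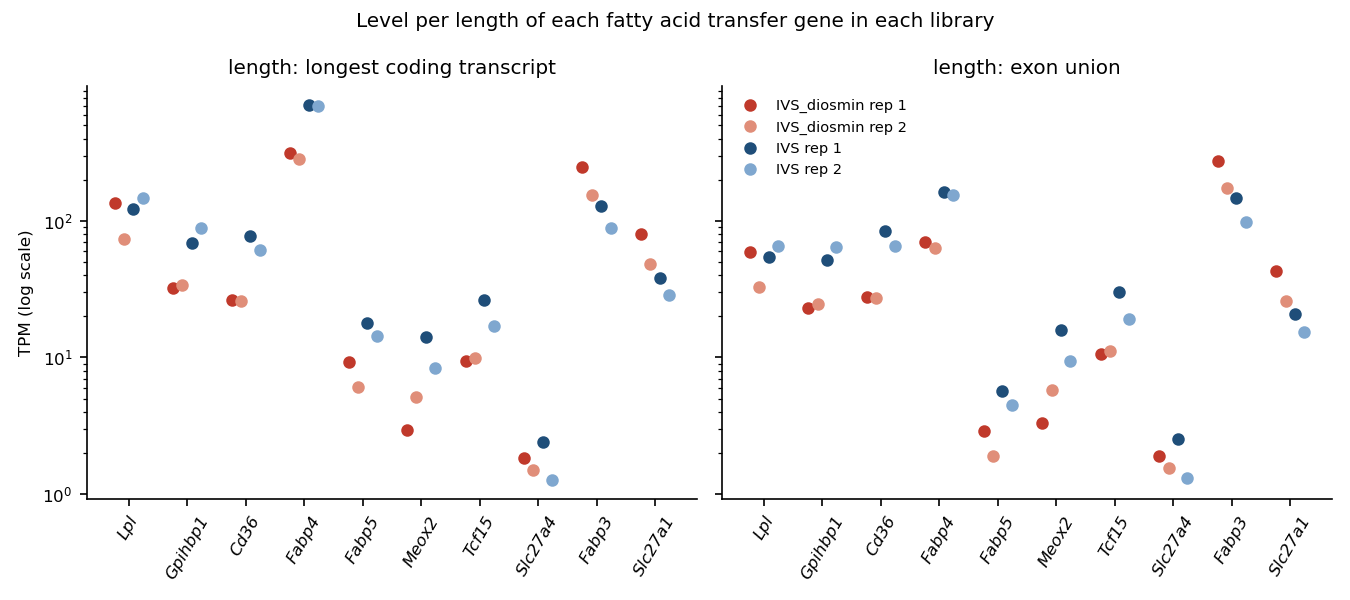
Transcripts per 1000000 transcripts (TPM, log y axis) of each gene in each library, with the length of the longest coding transcript (left) and with the union of all exons (right). Fabp4 leads in all 4 libraries on the left, and Fabp3 leads the diosmin libraries on the right.

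Gpihbp1, Meox2 and Tcf15 are mainly endothelial in adult muscle, and Cd36 and Fabp4 are shared with other cells, so these genes were set beside endothelial markers of the same library. Over 14 pan-endothelial markers, 14 of 14 had lower values with diosmin, 6 fell and 0 rose. The median of their log2 fold changes was -0.84. They summed to 465 and 400 CPM with diosmin and to 728 and 848 CPM in IVS. Those that fell were Cdh5, the cadherin of endothelial junctions (log2 -1.34), Erg, an endothelial transcription factor (-1.28), Mmrn2, an endothelial matrix protein (-1.23), Esam, a junction adhesion molecule (-1.15), Pecam1, a platelet and endothelial adhesion molecule (-1.04), and Ptprb, the phosphatase of the TIE2 receptor (-1.02). Without IVS_diosmin replicate 1 the count was 0, and without IVS replicate 2 it was 1.

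Muscle capillary markers, 10 in all, summed to 340 and 391 CPM with diosmin and to 803 and 1017 CPM in IVS, a log2 difference of -1.31. Aqp1, a water channel of capillaries, made up 27.1% and 39.6% of that sum with diosmin and 49% and 53.8% in IVS. Without Aqp1 the sums, in which Sgk1 was the largest part, were 248 and 236 CPM against 409 and 470 CPM. This log2 difference of -0.86 was the same to 2 decimals as that of the pan-endothelial sum. The median over the 10 log2 fold changes was -0.86 too. Of these 10, 8 had lower values, 2 (Btnl9 and Aplnr) had higher values, and 5 fell. Those that fell were Aqp1 (log2 -1.93), Timp4, a metalloproteinase inhibitor (-1.69), Rgcc, a regulator of the cell cycle (-1.53), Kdr, the main VEGF receptor (-1.20), and Cd300lg, a capillary surface glycoprotein (-0.93). Without IVS_diosmin replicate 1 the count was 0. Of the 10 tested markers of large vessels and lymphatics 0 passed in edgeR or DESeq2 and 2 were lower at an unadjusted p under 0.05, with a median log2 fold change of -0.40. These 2 were Hey1, an arterial Notch target (log2 -1.24, edgeR adjusted p = 0.139), and Flt4, the lymphatic VEGF receptor (-0.99, edgeR adjusted p = 0.175). Of the 10 tested, 3 had higher and 7 lower values. Of the genes with too few reads to be tested, Prox1 and Mmrn1 had higher values in both diosmin libraries and Selp lower. With no low count filter edgeR called 1 gene of this list lower and 1 higher. The sum over all 13 genes of that list was 85.5 and 83.2 CPM with diosmin and 89.5 and 113 CPM in IVS.

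As a share of the pan-endothelial sum, Cd36 was 14.8% and 15.4% with diosmin and 23.5% and 20% in IVS, a log2 difference of -0.52. Fabp4 was 46.2% and 44.4% with diosmin and 56.4% and 59.2% in IVS (log2 -0.35), and Gpihbp1 was 8.67% and 9.83% with diosmin and 10.2% and 13.9% in IVS (log2 -0.37). For these 3 genes both diosmin libraries were below both IVS libraries. The share of all tested genes that would lie below on such ratio scales was not counted. The differences were smaller than those of the CPM values, which the scale itself brings about. The pan-endothelial sum had a log2 difference of -0.86, so dividing by it raises that of any gene by about as much. Meox2, at 1.14% and 2.11% with diosmin and 2.92% and 1.89% in IVS, and Tcf15, at 1.52% and 1.72% with diosmin and 2.31% and 1.58% in IVS, overlapped between the groups.

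Against the capillary marker sum the outcome turned on Aqp1. With Aqp1 in the sum, all 5 genes that fell overlapped between the groups. Cd36 was 20.2% and 15.7% of that sum with diosmin and 21.3% and 16.7% in IVS (log2 -0.08). Fabp4 was 63.3% and 45.4% with diosmin and 51.2% and 49.4% in IVS (log2 0.09). Gpihbp1 was 11.9% and 10.1% with diosmin and 9.24% and 11.6% in IVS (log2 0.08). Meox2 and Tcf15 overlapped as well, with log2 differences of -0.15 and 0.21. Lpl was above, at 126% and 54.5% with diosmin and 40.3% and 48.5% in IVS. With Aqp1 left out, a choice made after the values were seen, the values were close to those against the pan-endothelial sum. The largest part of the sum was then Sgk1 (log2 -0.56), at 128 of 248 and 118 of 236 CPM in the diosmin libraries. In the IVS libraries it was 184 of 409 and 179 of 470 CPM. Cd36 was then 27.7% and 26.0% with diosmin and 41.7% and 36.1% in IVS (log2 -0.53). Fabp4 (log2 -0.36) and Gpihbp1 (-0.37) likewise had both diosmin libraries below both IVS libraries, and Meox2 and Tcf15 overlapped. Ratios with Sgk1 left out as well were not formed, so how far these values rest on Sgk1 was not tested. An exact permutation test of 2 libraries against 2 cannot give a 2-sided p under 0.333, and no other test of these ratios was run.

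**Figure D4:**
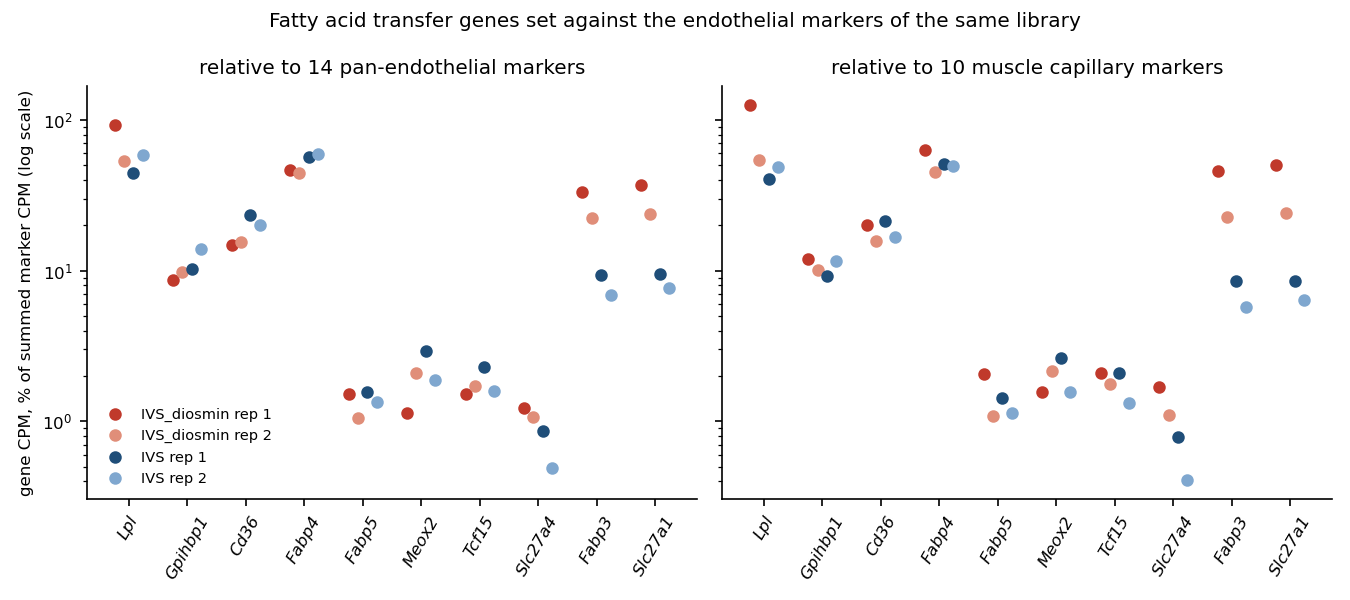
CPM of each gene as a percent of the summed CPM of 14 pan-endothelial markers (left) or 10 muscle capillary markers (right) of the same library (log y axis, 1 point per library). On the left the diosmin points of Cd36, Fabp4 and Gpihbp1 are below the IVS points, on the right, where Aqp1 makes up to 53.8% of the sum, they mix with them, and Fabp3 and Slc27a1 are above in both.

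Other cell types make some of the same carriers, and their markers were read in the same libraries. Fat cells make Fabp4, Cd36 and Lpl, and 9 adipocyte markers (the list without Slc2a4, the glucose transporter that muscle fibres also make) summed to 8.85 and 18.4 CPM with diosmin and to 14.2 and 38.7 CPM in IVS. Adipoq, the adipocyte hormone adiponectin, was at 0.231 and 2.63 CPM with diosmin and at 1.60 and 2.68 CPM in IVS, and Plin1, the coat of fat droplets, stayed under 1 CPM in all 4 libraries. With Slc2a4 the sums were 225 and 272 CPM against 255 and 275 CPM. Of the 6 tested adipocyte markers 0 had higher and 6 lower values, with a median log2 fold change of -0.76. In edgeR or DESeq2 0 passed, and 2 were lower at an unadjusted p under 0.05. With no low count filter edgeR called 1 adipocyte marker lower. The genes of smallest p were Cidec, a lipid droplet protein (log2 -3.12 ± 0.85 SE, edgeR adjusted p = 0.0760), and Pck1 (-1.72 ± 0.77 SE, 0.287). Macrophages make Lpl, Cd36, Fabp4 and Fabp5, and the 12 macrophage markers summed to 37.0 and 56.5 CPM with diosmin and to 33.3 and 69.7 CPM in IVS, with a median log2 fold change of -0.29. Of the 10 tested, 4 had higher and 6 lower values, 0 passed in edgeR or DESeq2, and 0 at an unadjusted p under 0.05. The genes of smallest p, Csf1r and Mertk, had log2 fold changes of -0.61 and -0.64 (edgeR adjusted p = 0.410 and 0.515). Smooth muscle and pericyte markers summed to 302 and 287 CPM with diosmin and to 295 and 272 CPM in IVS. Of the 9 tested 6 had higher and 3 lower values, with a median of 0.29. In edgeR or DESeq2 0 passed, and 2 were higher at an unadjusted p under 0.05. Myh11 (0.50, edgeR adjusted p = 0.252) and Cspg4 (0.81, 0.282) had the smallest p.

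Slow fibre markers, like Fabp3 and Slc27a1, had higher values with diosmin. Of 10 slow fibre markers 9 rose with diosmin and 0 fell, and their sum was 3815 and 1541 CPM with diosmin against 84.6 and 98.1 CPM in IVS. Myh7, the slow type I myosin, was at 1257 and 456 CPM with diosmin and at 1.71 and 2.19 CPM in IVS. The slow markers that rose ranged from Casq2, the slow calsequestrin (log2 2.03), through Tpm3 (2.48), Atp2a2 (3.40), Myh7b (3.71), Myl3 (5.49), Tnnt1 (5.74), Tnnc1 (6.62) and Tnni1 (7.23) to Myh7 (8.79), and 7 of the 9 passed without each library in turn. The median over the 10 markers was 5.45. Diosmin replicate 1 had the higher slow marker sum, and it also had the higher Fabp3 and Slc27a1. In IVS replicates 1 and 2 Fabp3 was at 68.3 and 58.6 CPM and Slc27a1 at 68.7 and 64.9 CPM. The slow marker sum was low in both, and its difference came mostly from Tpm3 (33.6 and 47.6 CPM). Myl2 (14.8 and 7.06 CPM) and Casq2 (5.77 and 2.68 CPM) were lower in IVS replicate 2, and the other slow markers were higher there. At such low slow marker levels the IVS pair cannot show whether Fabp3 and Slc27a1 follow them. Of 10 fast fibre markers (median log2 fold change -0.12) 1 rose and 0 fell. It was Myh1, the type IIx myosin (log2 1.17), which missed the threshold without IVS_diosmin replicate 1 (edgeR adjusted p = 0.260) and without IVS replicate 2 (0.239). Tnni2 (-0.72, edgeR adjusted p = 0.0813) and Pvalb (-0.65, 0.116) had the smallest p of the others. At an unadjusted p under 0.05, 3 were higher and 2 lower, and DESeq2 called 1 higher and 2 lower. Myh2, the type IIa myosin of oxidative fast fibres, was at 789 and 321 CPM with diosmin and at 133 and 46.7 CPM in IVS (log2 2.63 ± 0.74 SE, edgeR adjusted p = 0.198). The part of the slow fibre share in the values of Fabp3 and Slc27a1 was not tested.

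The proteins that control the lipase and catch lipoproteins gave 0 calls. Of 25 genes in that list 17 were tested, 7 with higher and 10 with lower values, and 0 passed in edgeR, with a median log2 fold change of -0.07. At an unadjusted p under 0.05, 4 were lower, and DESeq2 called 1 lower. Apoe, an apolipoprotein that macrophages and vessel cells make, came closest, at 35.6 and 50.3 CPM with diosmin and 67.2 and 113 CPM in IVS (log2 -1.07 ± 0.27 SE, edgeR adjusted p = 0.0627). Scarb1, a lipoprotein receptor of endothelium and other cells, was next (-0.82 ± 0.26 SE, edgeR adjusted p = 0.123). Lmf1 and Sel1l, which mature the lipase in the endoplasmic reticulum, had log2 fold changes of -0.31 and -0.07. Angptl4, its inhibitor, was at 7.62 and 6.79 CPM with diosmin and at 2.40 and 7.63 CPM in IVS, with IVS replicate 1 apart from the others.

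Among other carriers and uptake partners, 3 caveola genes fell. Of 23 genes in that list 12 were tested, 3 fell and 1 rose, and the median log2 fold change was -0.39. Cav1, the coat protein of caveolae, which hold CD36 at the surface, was at 68.8 and 95.5 CPM with diosmin and at 246 and 224 CPM in IVS (log2 -1.52 ± 0.22 SE, edgeR adjusted p = 0.00460). Cav2, its partner, had a log2 fold change of -2.24 and Cavin1, which shapes the caveola, one of -1.37. Zdhhc5, the palmitoyltransferase that acts on CD36 in fat cells, rose to 43.7 and 51.6 CPM with diosmin, against 23.6 and 24.8 CPM in IVS (log2 0.98 ± 0.21 SE, edgeR adjusted p = 0.0283), but passed in 0 of 4 fits without 1 library. Cav2 passed in all 4, and Cav1 and Cavin1 missed the threshold without IVS_diosmin replicate 1 (edgeR adjusted p = 0.116 and 0.108). Of the other FABP and SLC27 genes, Fabp1, Fabp2, Fabp6, Fabp9, Fabp12 and Slc27a6 had 0 reads in all 4 libraries.

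Among signals and regulators of endothelial lipid uptake, 6 of 28 tested genes fell and 0 rose (median log2 fold change -0.27). They were Flt1, the receptor of VEGF-B (log2 -0.96), Kdr (-1.20), the Notch ligand Dll4 of endothelium (-1.26), the helix-loop-helix inhibitors Id1 (-1.93) and Id3 (-1.19), which can bind partners of factors such as TCF15, and Sox18, an endothelial transcription factor (-1.62). Of these, 0 passed without either IVS_diosmin library, 3 without IVS replicate 1 and 1 without IVS replicate 2. Vegfb, the ligand that muscle fibres send to endothelium to raise fatty acid uptake in mice, was at 58.6 and 58.2 CPM with diosmin and at 39.1 and 34.3 CPM in IVS, and did not pass (log2 0.67 ± 0.20 SE, edgeR adjusted p = 0.0998). Its receptor Flt1 fell, while the ligand had higher values in both diosmin libraries. Pparg, a nuclear receptor that drives Fabp4 and Cd36 in fat cells, was at 3.23 and 1.46 CPM with diosmin and at 5.65 and 11.3 CPM in IVS (log2 -1.85 ± 0.47 SE, edgeR adjusted p = 0.0599).

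Past the membrane, the enzymes that activate and store fatty acids in fibres mostly did not pass. Of 22 tested genes 1 rose and 1 fell, with a median log2 fold change of 0.08. Acsl1, the acyl-CoA synthetase of muscle, rose to 124 and 95.1 CPM with diosmin, against 55.7 and 52.9 CPM in IVS (log2 1.01 ± 0.21 SE, edgeR adjusted p = 0.0263), a size close to that of Slc27a1 (1.00) and Fabp3 (0.94). It passed without IVS_diosmin replicate 2 and missed the threshold without each other library (edgeR adjusted p from 0.0810 to 0.217). Mgll, monoglyceride lipase, fell to 31.0 and 21.2 CPM with diosmin, against 52.9 and 63.9 CPM in IVS (log2 -1.16 ± 0.23 SE, edgeR adjusted p = 0.0233), and passed only without IVS replicate 1. Dgat2, which makes triglyceride, had higher values without passing (log2 1.40 ± 0.35 SE, edgeR adjusted p = 0.0541).

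**Figure D5:**
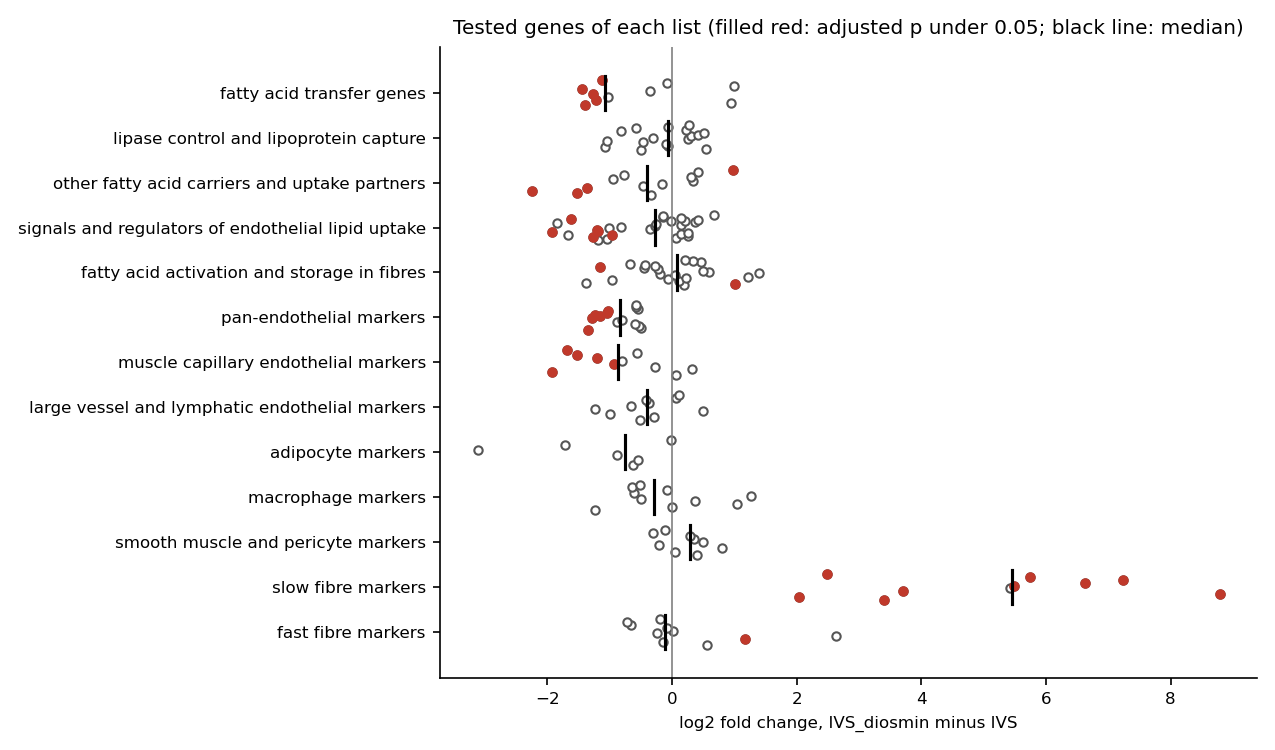
Log2 fold change, IVS_diosmin minus IVS (x axis), of every tested gene of each list (1 circle per gene, filled red where the edgeR adjusted p was under 0.05, black line at the list's median). The 10 fatty acid transfer genes have a median of -1.07, the pan-endothelial markers one of -0.84 and the slow fibre markers one of 5.45.

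The genes whose levels ran most like a member across the 4 libraries were listed for the 5 members that fell and for Lpl. Likeness was the distance between log2 CPM profiles, each centred on its own mean, over 9595 other genes, and with 4 libraries it describes these libraries alone. The nearest to Cd36 was Cdh5 (distance 0.0736), followed by App (0.145) and Grk5 (0.161). For Fabp4 they were Pdia3, Arhgap31 and Cox6a1, for Gpihbp1 Cnn3, Pvr and Prkcsh, and for Meox2 Marcks, Nedd9 and Tspan13. Tcf15 was nearest to Cavin2 (0.0818), then Coil and Mrpl16. Lpl was nearest to Slc20a1 (0.0831) and Nos3, the endothelial nitric oxide synthase (0.114), then Dbndd2. Nos3 was at 44.1 and 20.7 CPM with diosmin and 31.9 and 53.1 CPM in IVS, the same order of libraries as Lpl.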

How the data were processed

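Each deposited table holds whole-number gene counts of 1 library, not normalized. Per the submitters' processing notes, HISAT2 2.1.0, HTSeq and the build mm10 were used. For HTSeq the version, annotation release and strand setting are not given in the sources used here. Symbols, positions and lengths came from GENCODE M21 (GRCm38, the same build), where 55141 of 55401 identifiers matched without their version. Genes took 24.9% to 27.7% of all counts, gene and summary lines together. The rest are in 5 summary lines that name no gene, left out of library sizes and tests.

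Counts were tested with edgeR 4.0.16 in R 4.3.3: filterByExpr, TMM scaling, a robust quasi-likelihood fit of IVS_diosmin minus IVS without a block, 2-sided, Benjamini-Hochberg adjustment over 13533 genes and a threshold of 0.05. The SE is the log2 fold change over the square root of F. The test was tried on simulated counts with known changes. Replicates differed by more than sampling noise (chi-square over degrees of freedom 19.7 in IVS_diosmin and 28.6 in IVS). Alternatives were DESeq2 1.42.0, limma 3.58.1 (voom), other scalings and filters, a replicate block and leaving out each library, with the lone library then taken to vary as the other group does. The members and the 13 gene lists were chosen with earlier results of these data known. The text names all members, the list genes past the threshold (or, where fewer than 2 passed, the 2 of smallest p) and the 3 nearest profiles. Other genes named with values (Lmf1, Sel1l, Angptl4, Vegfb, Pparg, Dgat2, Myh2, Adipoq, Plin1, CT010467.1) were chosen after their values were seen. Gene lists share Kdr and Aplnr.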

Additional observations from a re-analysis of the deposited data

Results flagged for a closer look

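The summary line for alignment to more than 1 place, which the gene counts leave out, held 45.6% and 43.6% of all counts in IVS_diosmin replicates 1 and 2. In IVS replicates 1 and 2 it held 37.7% and 38.8%. All counts are here the gene counts and the summary lines together, and whether that line counts reads or alignments was not checked. This share stands out because it is a signal outside the gene counts that was higher in both diosmin libraries. Reads of Fabp3 and Fabp5 that fit their near-identical copies fall in this share. Slc27a1 and Lpl have no such near-identical copy, but share less alike stretches of at least 150 bases with 467 and 19 other genes. The part of this share in the values of these 4 genes was not tested.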

How the results depend on the processing

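The 5 calls among the 10 genes were made again with DESeq2 size factors, limma-voom, DESeq2, the filter of 50 counts and library sizes without the 20 most abundant genes. Of 110 gene and setting pairs 82 kept direction and side of the threshold, 18 lost a call, 7 gained one and 3 turned sign. The turns were Lpl without IVS_diosmin replicate 2 (log2 0.05) and Slc27a4 without IVS_diosmin replicate 2 (0.09) and without IVS replicate 1 (0.27). Over the fits without 1 library Lpl ran from -0.94 to 0.05 and Slc27a4 from -0.35 to 0.27, 0 to 3 of the 10 genes fell and 0 to 2 rose, and over all genes 11 to 257 fell and 27 to 139 rose. With no low count filter 525 genes fell and 394 rose, and of the 10 genes 6 fell, now with Fabp5 (edgeR adjusted p = 0.0402), and 2 rose. DESeq2 called 266 genes higher, and 2 of the 10. Over genes, the deviations of the 2 libraries numbered replicate 1 from their group means had a correlation of -0.00864. With 1 such contrast per group this cannot show whether libraries were paired, and the labels do not say. With the replicate number as a block 49 genes fell and 44 rose, and 1 of the 10 genes, Cd36, fell.

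Relative to capillary in place of pan-endothelial markers, the log2 difference turned positive for Fabp4 (0.09), Fabp5 (0.24), Gpihbp1 (0.08) and Tcf15 (0.21). Without Aqp1, which makes 27.1% to 53.8% of that sum, it stayed negative in those genes, at -0.36, -0.21, -0.37 and -0.25. Sgk1 was the largest part of the sum left, and leaving it out was not tried. Relative to pan-endothelial markers it ran from -0.46 to 0.05 for Fabp5 and from -0.51 to 0.03 for Tcf15 without each library. The causes of the other changes were not tested. Fabp5, Meox2, Tcf15 and Slc27a4 had fewer than 400 reads per library, which limits their precision.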
